A study of Mus musculus with 84 samples.

Results

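The cytochrome P450 genes described here were 9 of the 17695 genes in the table of counts, followed in mouse liver across 12 diet groups: Cyp1a2, Cyp2a5, Cyp2a12, Cyp2d9, Cyp2d10, Cyp2d22, Cyp2d26, Cyp2e1 and Cyp2f2. They were taken by gene identifier from a list of genes of the Cyp1a, Cyp2a, Cyp2d, Cyp2e and Cyp2f families. The list named them for their possible part in activating or clearing thiophosphates. Other genes of these families, such as Cyp2a4 and Cyp2d40, were not on it, so the members do not stand for whole families. This rule uses gene names and no measured value, although earlier results of these data were known when it was set. All 9 had a median count above 8, the limit that 10415 genes passed and were tested at. Liver RNA of 84 male B6C3F1 mice, 8 weeks old when the diets began, was measured with TempO-Seq, in which pairs of detector oligos that anneal side by side on a transcript are ligated, amplified and counted. The mice ate, for 7 days, control diet (0 ppm) or diet with 1 of 3 organophosphate pesticides (OPPs): fenthion (FT) at 2.5, 5, 10 or 20 ppm, methidathion (MT) at 10, 25, 50 or 100 ppm, or parathion (PT) at 20, 40 or 80 ppm. Every group held 7 mice, of which 2 belonged to experimental block 1, 3 to block 3 and 2 to block 4. RNA of 7 mice was isolated at the EPA (2 mice each on control diet, the highest FT dose and the highest MT dose, and 1 mouse on the lowest MT dose) and of the others at EA, so that all PT mice had EA RNA. Whole pieces of liver hold several cell types, and in such bulk RNA fewer cells of a type and less RNA per cell cannot be told apart.

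FT, MT and PT are thiophosphates: the phosphorus carries a double-bonded sulfur, and the pesticide inhibits acetylcholinesterase strongly only after that sulfur is exchanged for oxygen. Microsomal P450 enzymes carry out this exchange, and in a competing reaction they split off the leaving group and so clear the compound. P450s draw the electrons for both reactions from P450 oxidoreductase (Por), with cytochrome b5 as a helper. In the liver lobule Cyp2e1, Cyp1a2 and Cyp2a5 are known mainly from hepatocytes near the central vein, and Cyp2f2 from hepatocytes near the portal tract.

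Several members are close copies of each other, which bears on how their counts were made. On GRCm39, Cyp2a5 (chr7:26534730-26542973, plus strand), Cyp2a12 (chr7:26728506-26736800, plus) and Cyp2f2 (chr7:26819322-26833090, plus) lie in 1 cluster, and Cyp2e1 lies alone on the same chromosome (chr7:140343652-140355167, plus). Cyp2d22 (chr15:82254727-82264597, minus), Cyp2d10 (chr15:82284102-82291404, minus), Cyp2d9 (chr15:82317638-82341046, plus) and Cyp2d26 (chr15:82674300-82678509, minus) form another cluster, and Cyp1a2 is at chr9:57584196-57590986 (minus). The first 51 coding bases, read from GRCm39 and printed 5′ to 3′, show how alike the Cyp2a and Cyp2d members are, with capitals for bases that differ from the first sequence of each family.
Cyp2a5: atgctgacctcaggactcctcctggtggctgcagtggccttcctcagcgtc
Cyp2a4: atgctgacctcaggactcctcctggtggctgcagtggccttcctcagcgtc
Cyp2a12: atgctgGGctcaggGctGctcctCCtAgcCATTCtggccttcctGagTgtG
Cyp2d10: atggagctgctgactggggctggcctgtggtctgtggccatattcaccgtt
Cyp2d9: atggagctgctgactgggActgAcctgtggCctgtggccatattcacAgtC
Cyp2d26: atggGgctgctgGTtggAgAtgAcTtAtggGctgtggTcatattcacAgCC
Cyp2d22: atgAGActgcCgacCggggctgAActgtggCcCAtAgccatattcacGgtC
Cyp2a4, which is no member, had 0 differences from Cyp2a5 in this stretch, against 15 in Cyp2a12. In the Cyp2d family 5 bases differed between Cyp2d10 and Cyp2d9, and 13 each between Cyp2d10 and Cyp2d26 or Cyp2d22. Over the whole coding sequence the identity was 98.5% between Cyp2a5 and Cyp2a4, 76.1% between Cyp2a5 and Cyp2a12, 92.5% between Cyp2d10 and Cyp2d9, and 78.3% between Cyp2d10 and Cyp2d22. Of all 50-base stretches of the transcript, the share also found in another gene's transcript was 40.4% for Cyp2a5, 40.3% for Cyp2d10, 29% for Cyp2d9, 27.5% for Cyp2a12, 10.5% for Cyp2d26, 6.25% for Cyp2d22, 4.91% for Cyp1a2, 3.16% for Cyp2e1 and 0% for Cyp2f2. The deposited counts were estimates that can divide a read among copies. They were not whole numbers in 84 of 84 mice for Cyp2a5, 82 for Cyp2d26, 80 for Cyp2d10 and 77 for Cyp2d22, but in 27 for Cyp2e1, 25 for Cyp1a2, 3 for Cyp2a12, 1 for Cyp2d9 and 0 for Cyp2f2. The levels of Cyp2a5, Cyp2d10, Cyp2d22 and Cyp2d26 are therefore uncertain by whatever part of their reads belongs to a copy. The detector oligos themselves were not used here, so the stretch of each transcript that was counted is not known.

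Totals per mouse ran from 6950381 to 15300589 counts. The 9 members together took a median of 1.17% of the counts of a control mouse, 1.57% at PT 40 ppm and 2.53% at PT 80 ppm, where the lowest mouse had 1.90% and the highest 3.01%. Most of these counts came from Cyp2e1, so their share follows that gene and not the members as a set. Levels below are counts scaled by TMM to library size (TMM-scaled CPM, here CPM). Differences are log2 fold changes with their standard error (SE), and "passed" means an adjusted p under 0.05 over all 10415 genes in the quasi-likelihood test of edgeR, whose model also held block and RNA isolator. A probe count depends on the oligos as well as on the RNA, so a higher count of 1 gene than of another is not read as more RNA.

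At PT 80 ppm, 4 of the 9 members passed against control, where 18.6% of all genes did. Cyp2e1, Cyp2a5 and Cyp2d22 rose, as 9.75% of all genes did, and Cyp2f2 fell, as 8.89% did. Of these 4, Cyp2a5 also changed by at least 2-fold, as 3.30% of all genes did. The median log2 fold change of the members was 0.23, beside 0.01 over all genes tested. At the other 10 dosed groups no member passed. The same mice served as control for all of these comparisons.

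Cyp2e1, which oxidises ethanol, acetone and other small molecules, separated PT 80 ppm from control completely. It lay between 6886 and 14365 CPM in the control mice (median 8014) and between 15130 and 25138 CPM at PT 80 ppm (median 20074). The lowest PT 80 ppm mouse was above the highest control mouse, a gap that 0.509% of all genes showed in that direction. The fitted change was 0.98 ± 0.14 (SE, n = 7 mice a group), or 1.97-fold, with an adjusted p of 1.16e-07. Within blocks the change was 0.74 in block 1, 0.92 in block 3 and 1.30 in block 4, each with an adjusted p under the threshold. At PT 40 ppm Cyp2e1 lay between 10249 and 13453 CPM, all 7 mice above the control median, with a change of 0.25 ± 0.13 that did not pass (adjusted p = 0.610). At PT 20 ppm it ranged from 6008 to 14730 CPM, within and around the control values. Leaving out any 1 of the control or PT 80 ppm mice kept the change at PT 80 ppm between 0.93 and 1.03.

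Cyp2d22, one of the mouse relatives of the human drug-oxidising enzyme CYP2D6, ran from 34.6 to 53.3 CPM in control mice (median 41) and from 47.3 to 119 CPM at PT 80 ppm (median 60.1). All 7 mice at PT 80 ppm were above the control median, but the groups overlapped, since the lowest of them lay below the highest control mouse. The change was 0.69 ± 0.12, or 1.62-fold (adjusted p = 7.67e-06). Within blocks it was 1.01, 0.60 and 0.37 in blocks 1, 3 and 4, the last without passing (adjusted p = 0.463).

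Cyp2a5, which hydroxylates coumarin and nicotine and is known to rise in injured or stressed liver, had the largest fitted change and the widest spread. The control mice lay between 57.4 and 337 CPM (median 118) and the PT 80 ppm mice between 128 and 861 CPM (median 271), with all 7 above the control median. The ranges overlapped widely, and 1 mouse at 861 CPM stood far above the next at 389 CPM. The change was 1.09 ± 0.28, or 2.12-fold (adjusted p = 0.0030). Without the block term it was 1.05 with an adjusted p of 0.0708, and within blocks 0.99, 1.43 and 0.60, passing in block 3 alone. In the deposited log2 values already adjusted for block and isolator it was 0.42 and did not pass (limma, adjusted p = 0.140). Cyp2a4, whose coding sequence is nearly that of Cyp2a5, moved with it, from a control median of 18.1 to 34.4 CPM (1.08 ± 0.30, adjusted p = 0.0055), and how the reads of the pair were divided was not tested.

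Cyp2f2, known for the epoxidation of naphthalene, was the member that fell. Its levels were 174 to 272 CPM in control mice (median 254) and 108 to 230 CPM at PT 80 ppm (median 216), and all 7 mice at PT 80 ppm were below the control median. The change was -0.36 ± 0.12, or 0.777-fold (adjusted p = 0.0263). It rested on single mice: without the PT 80 ppm mouse at 108 CPM it was -0.24 (adjusted p = 0.160), and without 1 of the block 3 control mice, at 272 CPM, it was -0.30 (adjusted p = 0.0997). It was -0.68, -0.29 and -0.17 within blocks 1, 3 and 4, and -0.34 in the mice with EA RNA alone (adjusted p = 0.0775), passing in none of them. In limma it was -0.28 and did not pass (adjusted p = 0.132).

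**Figure D1:**
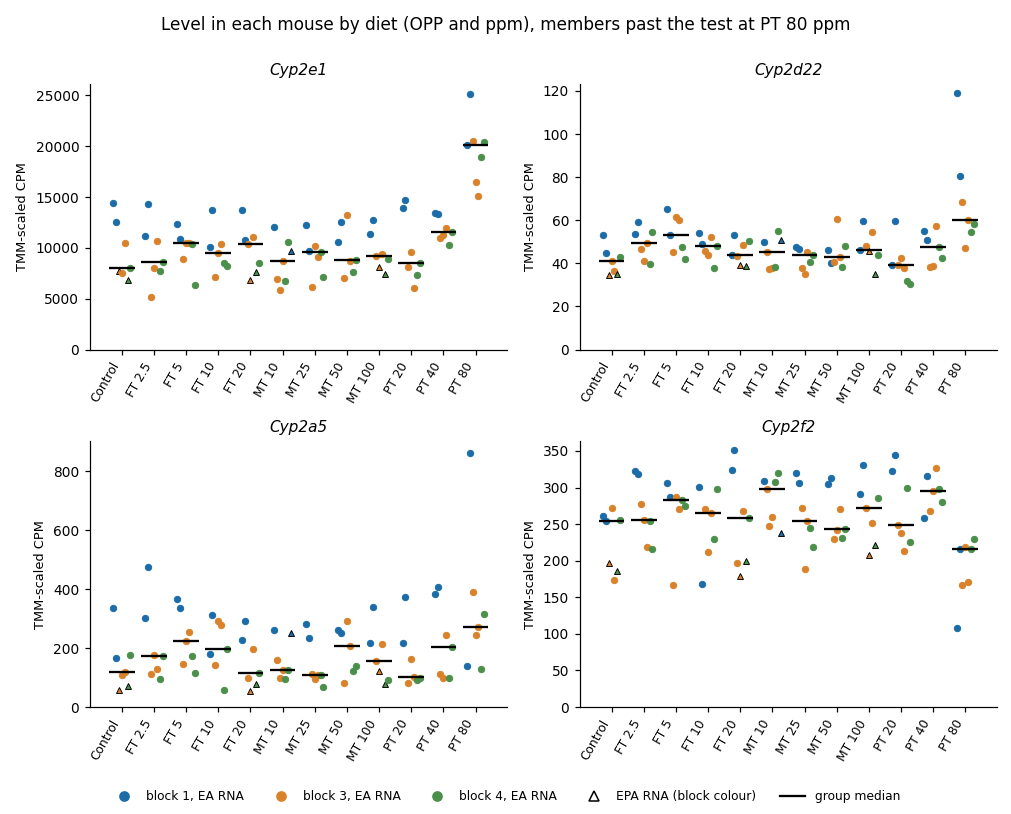
TMM-scaled CPM of Cyp2e1, Cyp2d22, Cyp2a5 and Cyp2f2 in each of the 84 mice, by OPP and dose in ppm (circles EA RNA, triangles EPA RNA, colours the block, black lines the group medians). For Cyp2e1 all 7 mice at PT 80 ppm lie above every control mouse, for Cyp2f2 they lie below the control median of 254 CPM, and 1 PT 80 ppm mouse stands apart at 861 CPM for Cyp2a5 and another at 119 CPM for Cyp2d22.

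The other 5 members did not pass at PT 80 ppm in edgeR. In limma on the deposited adjusted log2 values Cyp1a2 (0.53, adjusted p = 0.0027) and Cyp2a12 (-0.34, adjusted p = 0.0018) did pass. In the other dosed groups that fit called a far larger share of all genes than edgeR, as given below. Its share at PT 80 ppm is not given here. Cyp1a2, the enzyme of caffeine and aromatic amine oxidation, ran from 25.4 to 102 CPM at PT 80 ppm and from 38.6 to 102 CPM in control mice (0.23 ± 0.18, adjusted p = 0.412). The mouse at 25.4 CPM was the lowest of all groups' values for this gene. Cyp2a12, which hydroxylates testosterone and bile acids, was at 150 to 320 CPM against 171 to 333 CPM (-0.12 ± 0.11, adjusted p = 0.511). These ranges nearly coincide.

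Among the remaining Cyp2d members, Cyp2d9, a testosterone 16α-hydroxylase of male mouse liver, was at 31.1 to 89.6 CPM at PT 80 ppm against 46.8 to 77.8 CPM in control mice (-0.18 ± 0.16, adjusted p = 0.477). Cyp2d10 was at 1340 to 2434 CPM against 1200 to 2309 CPM (0.12 ± 0.11, adjusted p = 0.503). Cyp2d26 was at 289 to 669 CPM against 270 to 537 CPM (0.24 ± 0.13, adjusted p = 0.204). Cyp2d26 passed in limma (0.37, adjusted p = 0.0410) but was -0.25 in the deposited adjusted log2 values (adjusted p = 0.0545). All 3 overlapped with control over most of their range. The summed Cyp2d counts changed by 0.13 (adjusted p = 0.327). The summed Cyp2a counts changed by 0.46 (adjusted p = 0.0230).

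The mouse with the lowest Cyp1a2, Cyp2a12, Cyp2d10 and Cyp2f2 at PT 80 ppm, a block 1 mouse, was the same animal that had the highest Cyp2d22. Its Cyp2e1, at 20074 CPM, was the group median. Among the 7 PT 80 ppm mice it also had the lowest summed level of markers of Kupffer cells and macrophages (65.4 CPM, the others 143 to 267), red blood cells (13.7 CPM, the others 24 to 52.1), lymphocytes (1.23 CPM, the others 4.04 to 6.54), cholangiocytes (11.4 CPM, the others 29.97 to 59.9) and sinusoidal endothelial cells (294 CPM, the others 326 to 396). Its summed hepatocyte markers, at 32576 CPM, were within the range of the others. What sets this mouse apart was not tested.

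The highest dose was also compared with the lower doses of PT, which leaves the control mice out. Of the 9 members 6 passed, where 25.7% of all genes did, 4 of them higher (13.4% of all genes) and 2 lower (12.4%). Cyp2e1 (0.88 ± 0.11, adjusted p = 2.83e-09), Cyp2d22 (0.66 ± 0.10, adjusted p = 1.85e-07) and Cyp2a5 (0.91 ± 0.23, adjusted p = 0.0016) were higher at 80 ppm than at 20 and 40 ppm. Cyp2f2 was lower, by more than against control (-0.56 ± 0.10, adjusted p = 3.64e-05), and stayed past the threshold without any 1 of the PT 80 ppm mice, at -0.61 to -0.43. Its PT 40 ppm mice, at 258 to 327 CPM, all lay above every PT 80 ppm mouse, as for 0.509% of all genes.

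Cyp2a12 (-0.28 ± 0.10, adjusted p = 0.0243) and Cyp2d26 (0.32 ± 0.11, adjusted p = 0.0202) passed in this comparison and not against control in edgeR. Cyp2a12 no longer passed without the PT 80 ppm mouse at 150 CPM (-0.19, adjusted p = 0.168) or without the one at 162 CPM (-0.19, adjusted p = 0.139). Cyp2d26 no longer passed without the mouse at 669 CPM (0.26, adjusted p = 0.0881) or the one at 573 CPM (0.27, adjusted p = 0.0719). Leaving out the PT 80 ppm mouse with the highest Cyp2d9, 89.6 CPM, brought that gene past the threshold at -0.40 (adjusted p = 0.0272), from -0.26 ± 0.14 with all mice. No member passed at MT 100 ppm against lower MT doses, where 0.0288% of all genes did, or at FT 20 ppm against lower FT doses, where 0% did. At an unadjusted p under 0.05 the numbers were 2 members for MT (8.45% of all genes) and 0 for FT (7.35%), and DESeq2 also found none past its adjusted threshold.

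**Figure D2:**
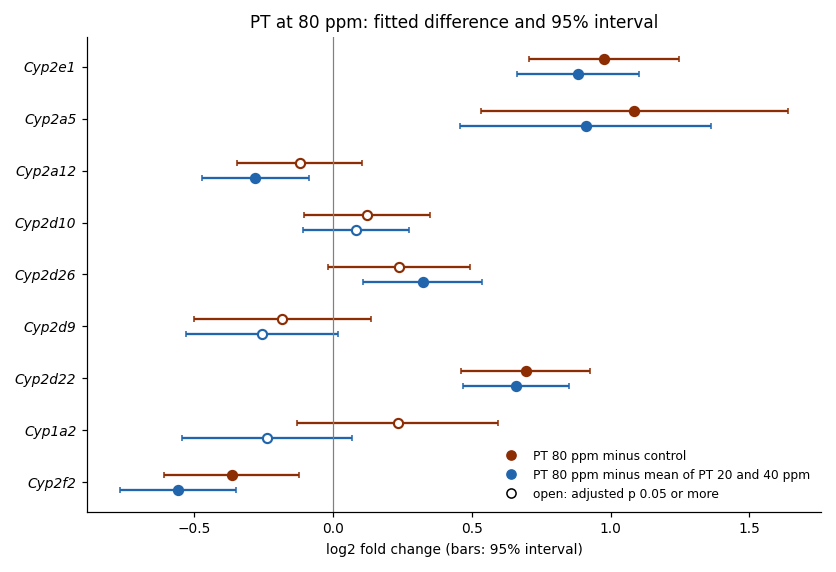
Fitted log2 fold change with 95% interval (x axis) for each of the 9 members (y axis) at PT 80 ppm, against control (brown) and against the mean of PT 20 and 40 ppm (blue), with filled points for an adjusted p under 0.05. Cyp2e1, Cyp2a5 and Cyp2d22 lie to the right and Cyp2f2 to the left of 0 in both comparisons, while Cyp1a2 has opposite signs and passes in neither.

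A linear trend over dose was fitted within each OPP. With control and all PT doses, the fitted log2 difference from 0 to 80 ppm was 1.20 ± 0.30 for Cyp2a5 (adjusted p = 0.0073), 1.11 ± 0.14 for Cyp2e1 (adjusted p = 8.92e-06) and 0.81 ± 0.13 for Cyp2d22 (adjusted p = 0.000158). These 3 of 9 members passed, where 15.6% of all genes did. With the dosed mice alone 4 members passed, beside 16.4% of all genes, and the fourth was Cyp2f2 (-0.77 ± 0.21, adjusted p = 0.0183). For FT no member passed with control or without it, as for 0% of all genes, and the fitted differences with control lay between -0.09 and 0.08. No member had an unadjusted p under 0.05 in either FT trend, as 3% and 4.43% of all genes had. For MT no member passed with control (0.115% of all genes) or without (0.0288%), and 3 and 2 members had an unadjusted p under 0.05, beside 13.1% and 10.1% of all genes. Those were Cyp2a12 (0.30 ± 0.08 over 0 to 100 ppm with control, adjusted p = 0.123), Cyp2d10 (0.25 ± 0.08, adjusted p = 0.163) and, with control alone, Cyp2d22 (0.18 ± 0.09, adjusted p = 0.380). The limma fit of these trends likewise found 0 members for FT and MT.

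At the other doses no member passed against control. Over the 90 pairs of a member and 1 of the other 10 dosed groups, the log2 fold change lay between -0.22 and 0.69, with an SE between 0.11 and 0.28. None passed in edgeR or in DESeq2, and 8 of the 90 had an unadjusted p under 0.05, as 8.78% of all genes did over the same 10 comparisons. In a fit of control and MT mice alone, Cyp2a12 passed at MT 100 ppm (0.40, adjusted p = 0.0234). The share of all genes that passed in that fit is not given here, so this call has no background to set it beside. In the edgeR model over all mice Cyp2a12 did not pass at MT 100 ppm (adjusted p = 0.0934). The share of all genes that passed in that model was 1.57% for the 10 ppm FT diet and 0.0768% for the 100 ppm MT diet. It was 0.0096% for each of the diets with 2.5 ppm FT, 50 ppm MT and 20 ppm PT, and 0% for the remaining 5. In limma on the deposited adjusted log2 values, by contrast, 1 to 4 members passed in each of these 10 groups, where 31.1% to 55.2% of all genes did. The largest of the 90 values was that of Cyp1a2 at PT 40 ppm.

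Cyp1a2 was at 79.5 to 138 CPM at PT 40 ppm (median 108), against 38.6 to 102 CPM in control mice (median 56.9). All 7 mice at PT 40 ppm were above the control median and 5 of them above the highest control mouse. The change was 0.69 ± 0.18 with an adjusted p of 0.304, so it did not pass. Cyp1a2 at PT 20 ppm (0.25 ± 0.18, adjusted p = 0.891) and at PT 80 ppm gave smaller values, so the highest mean of this gene was at the middle PT dose. In an F test over all 12 groups, Cyp1a2 passed (adjusted p = 0.0086), and it passed again when the PT 80 ppm mice were left out (adjusted p = 0.0046), a fit added after the data were examined. It was the 1 member to do so, where 3.88% of all genes did.

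In the F test over all 12 groups 6 members passed, where 20.3% of all genes did. Beside Cyp1a2 these were Cyp2e1 (adjusted p = 1.20e-10), Cyp2d22 (9.94e-06), Cyp2f2 (0.0056), Cyp2a5 (0.0072) and Cyp2a12 (0.0387). Cyp2d9 (0.0915), Cyp2d10 (0.158) and Cyp2d26 (0.169) did not. Group means were put in order, which gave 99 steps between neighbouring groups, 11 for each member. Of these steps 1 was larger than the combined SD of both groups. That step was from PT 40 ppm (11829 ± 1202 CPM, SD, n = 7) to PT 80 ppm (19538 ± 3230 CPM) for Cyp2e1. Sorting keeps steps between neighbours small, and the SD is that of single mice and not of a mean. The number of large steps therefore does not show whether groups were alike.

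The lowest group mean of Cyp2e1 was at MT 10 ppm (8681 CPM) and the control mean was 9652 CPM. Cyp2a5 had its lowest mean at MT 25 ppm (143 CPM), its second highest at FT 5 ppm (231 CPM) and its highest at PT 80 ppm (335 CPM). Cyp2d22 was lowest at PT 20 ppm (40.1 CPM) and highest at PT 80 ppm (69.6 CPM). Cyp2f2 was highest at PT 40 ppm (291 CPM) and lowest at PT 80 ppm (189 CPM). For Cyp2f2 the highest and the lowest mean thus lay at neighbouring doses of PT.

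For the rest, Cyp1a2 was highest at PT 40 ppm (108 CPM) and lowest at MT 10 ppm (58.5 CPM). Cyp2a12 was highest at MT 100 ppm (347 CPM) and lowest at PT 80 ppm (260 CPM). Cyp2d9 was highest at FT 2.5 ppm (89.5 CPM) and lowest at PT 80 ppm (57.6 CPM). The control mean was the lowest of all for Cyp2d10 (1770 CPM), which was highest at FT 10 ppm (2231 CPM). Counted from the highest of the 12 groups, the control mean ranked 11 for Cyp2a5, Cyp2a12, Cyp2d9, Cyp2d22 and Cyp2f2. For Cyp1a2, Cyp2e1 and Cyp2d26 it ranked 9, 7 and 3. These means were not adjusted for block or isolator, and the control group held 2 mice with EPA RNA. Cyp2d26 was lowest at PT 20 ppm (381 CPM) and highest at PT 80 ppm (488 CPM), and the control mean was 431 CPM.

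**Figure D3:**
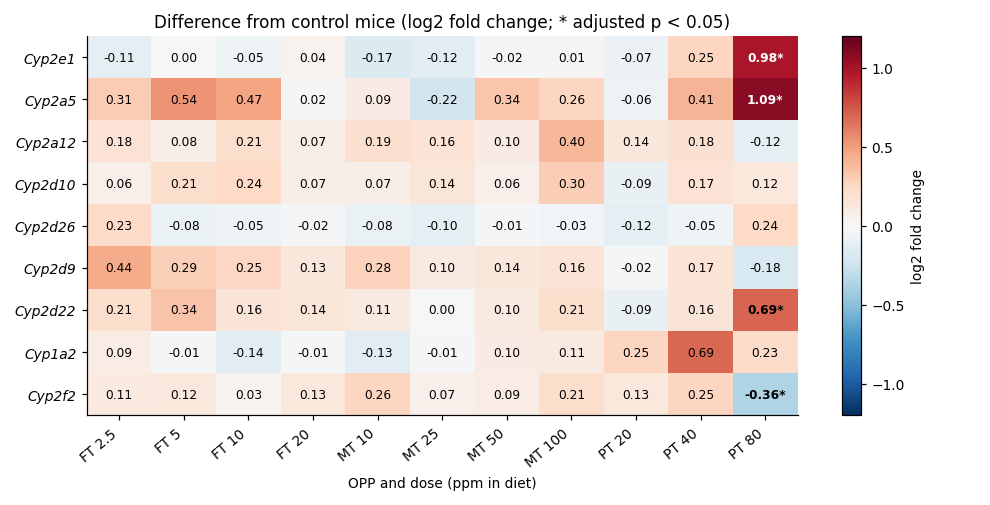
Fitted log2 fold change against control for each of the 9 members (rows) in each of the 11 dosed groups (columns), coloured from blue (lower) to red (higher), with an asterisk for an adjusted p under 0.05. The 4 asterisks stand in the PT 80 ppm column, and the largest value outside it is 0.69 for Cyp1a2 at PT 40 ppm.

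**Figure D4:**
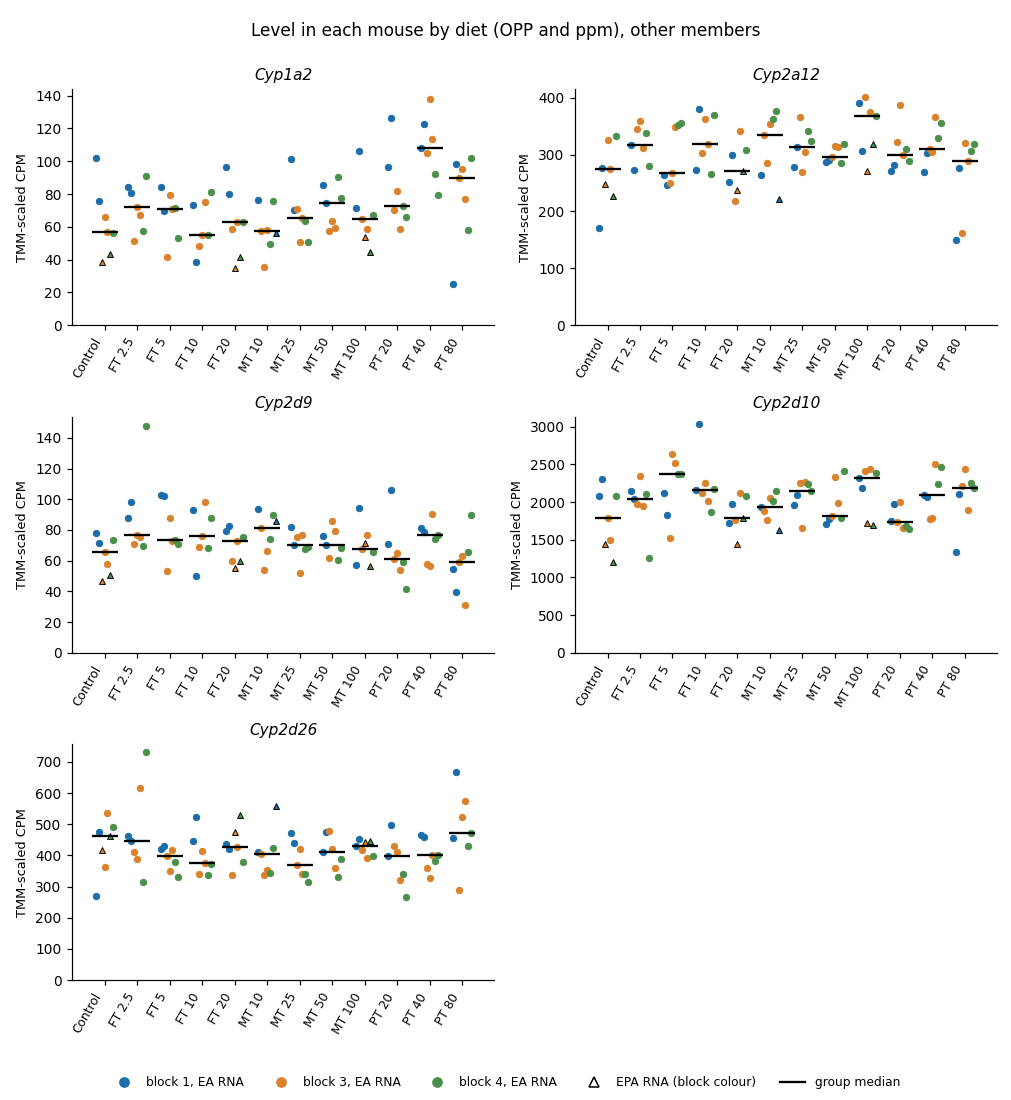
TMM-scaled CPM of the 5 members that did not pass at PT 80 ppm in each of the 84 mice, by OPP and dose in ppm (symbols and colours for RNA isolator and block, black lines for group medians). Cyp1a2 has its highest median, 108 CPM, at PT 40 ppm, and the ranges of Cyp2a12, Cyp2d9, Cyp2d10 and Cyp2d26 overlap between PT 80 ppm and control.

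Doses matched between OPPs at 2 points, FT with MT at 10 ppm and FT with PT at 20 ppm. FT and MT are both dimethyl esters and differ in their leaving group, a substituted phenol in FT and a thiadiazole ring joined through sulfur in MT. PT is a diethyl ester of nitrophenol, so that FT and PT differ in both the alkyl groups and the phenol. At equal ppm the doses are not equal in moles.

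None of the 18 differences passed, as for 0% of all genes in both pairs, with p-values adjusted over all genes within each pair. Of them 1 had an unadjusted p under 0.05, beside 5.53% of all genes over both pairs, and DESeq2 found 0 as well. For Cyp2e1 the FT minus MT difference at 10 ppm was 0.11 with a 95% interval from -0.15 to 0.38, and the FT minus PT difference at 20 ppm was 0.11. The widest interval was that of Cyp2a5 at 10 ppm, from -0.17 to 0.92 around 0.38. For Cyp2f2 the 10 ppm difference was -0.23 with an interval from -0.46 to 0.01, and at 20 ppm it was 0.00 ± 0.12. Cyp2d22 was 0.23 ± 0.12 higher with FT than with PT at 20 ppm (interval 0.00 to 0.47, adjusted p = 0.999). These intervals leave room for differences of the size seen for Cyp2f2 and, for Cyp2a5, of close to 2-fold. PT at 40 and 80 ppm and MT at 25, 50 and 100 ppm had no counterpart at the same dose.

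**Figure D5:**
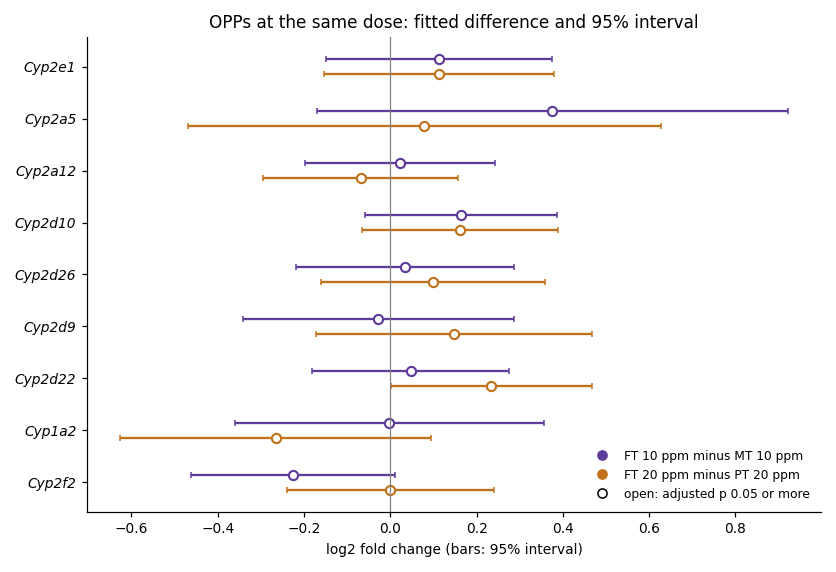
Fitted log2 difference with 95% interval (x axis) for each of the 9 members (y axis), FT minus MT at 10 ppm (purple) and FT minus PT at 20 ppm (orange). All points are open, since no adjusted p was under 0.05, and 17 of the 18 intervals include 0, with that of Cyp2d22 at 20 ppm just above it.

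The members also differed with block and RNA isolator. The block term passed for 8 of the 9 members, all but Cyp2d10, where 39.9% of all genes passed. Cyp2a5 was lower by 0.98 in block 3 and by 1.29 in block 4 than in block 1, differences of the size of its change at PT 80 ppm. For Cyp2e1 the fitted block differences were -0.45 and -0.50, and for Cyp2a12, in the other direction, 0.18 and 0.25. The isolator term passed for 7 members, where 38.7% of all genes passed. Of these 6 were lower with EPA RNA (19% of all genes), from Cyp2a5 (-0.62 ± 0.23) and Cyp1a2 (-0.57 ± 0.15) to Cyp2e1 (-0.28 ± 0.11), and Cyp2d26 was higher (0.27 ± 0.10).

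In the control group the 2 mice with EPA RNA had 57.4 and 72.2 CPM of Cyp2a5, against 108 to 337 CPM in the 5 with EA RNA. They had 38.6 and 43.2 CPM of Cyp1a2 against 56.6 to 102 CPM. In these mice 5 of the 9 members were lower with EPA RNA without overlap, the others being Cyp2d9, Cyp2d10 and Cyp2d22, where 11.1% of all genes were. With EA mice alone at PT 80 ppm, the change from control was 0.96 for Cyp2e1, 0.67 for Cyp2d22 and 0.99 for Cyp2a5, all still past the threshold.

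Other P450s and the genes that serve them were counted from lists at PT 80 ppm against control, where, as above, 9.75% of all genes rose and 8.89% fell. Of 9 tested relatives of families 1 and 2, Cyp2a4 rose and 5 fell: Cyp2d40 (-1.59 ± 0.20), Cyp2u1 (-1.26 ± 0.24), Cyp2d12 (-1.26 ± 0.45), Cyp2r1 and Cyp2j5. The list's median was -0.52. Cyp2d40 lies in the same family as Cyp2d22, which rose, and its mice at PT 80 ppm (3.11 to 20.2 CPM) did not overlap with control (23.3 to 46.7 CPM), as for 0.778% of all genes in that direction. Cyp1a1 and Cyp1b1, the closest relatives of Cyp1a2, had too few counts to be tested.

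Electron donors of the P450s moved in both directions. Por, which passes electrons to every microsomal P450, rose from 21.6 to 77.4 CPM in control mice to 47.7 to 851 CPM (2.33 ± 0.32, adjusted p = 1.16e-07). Cyb5a, the microsomal cytochrome b5, rose from 864 to 1153 CPM to 1206 to 2103 CPM (0.69 ± 0.08), without overlap, as for 0.509% of all genes in that direction. Cyb5b (-0.49 ± 0.12), the mitochondrial form, and the reductase Cyb5r3 (-0.63 ± 0.12) fell, and 1 of the 5 tested, Pgrmc1, did not pass. None of the 8 genes of heme synthesis passed in edgeR, where 3 had an unadjusted p under 0.05, or in DESeq2, and their median was 0.05.

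Of 24 transcription factors of hepatic P450 genes, 6 rose and 1 fell. The nuclear receptor Nr1i3 (CAR) rose by 1.78 ± 0.24, from 142 to 326 CPM in control mice to 491 to 1016 CPM, and Nr1i2 (PXR), Hnf4a and the clock-output factors Dbp, Tef and Hlf also rose. Ctnnb1, the β-catenin gene, fell by 0.24. Ahr, which controls Cyp1a2, did not pass. Of 4 tested targets of the aryl hydrocarbon receptor, Nqo1 rose (1.13 ± 0.23) and the others did not pass.

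Genes known from either end of the liver lobule were counted in the same way. Of 15 pericentral genes 2 rose, Cyp7a1 (2.24 ± 0.54) and Slc1a2 (0.47 ± 0.13), and 1 fell, with a median of 0.25, a share near that of all genes. Of 16 periportal genes 8 rose, among them Etnppl (1.89 ± 0.40), Sdsl (1.45 ± 0.30) and Asl (1.44 ± 0.20), and 1 fell, Cdh1, with a median of 0.54. Cyp2f2, itself known as periportal, fell while these rose.

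Most of the tested sex-biased genes changed. Of 14 tested male-biased genes 11 fell and 0 rose (median -1.18), led by Elovl3 (-2.70 ± 0.46) and Ugt2b38 (-2.20 ± 0.49), while Cyp2d9, itself male-biased, did not pass. All 7 tested female-biased genes rose (median 2.12), led by Sult1e1 (6.95 ± 1.01) and Fmo2 (4.56 ± 0.55), and the other 11 genes of that list were too low to test. In both leading genes the level at PT 80 ppm had a wide range, with medians of 4.42 and 4.01 CPM and highest mice at 3061 and 184 CPM. Of 8 genes of the growth hormone and Igf1 axis 2 rose, Igfbp1 (3.00 ± 0.69) and Igfbp3 (0.74 ± 0.22).

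Marker RNA of some other cell types also differed between PT 80 ppm and control. The summed level of 11 Kupffer cell and macrophage markers was 178 to 361 CPM in control mice and 65.4 to 267 CPM at PT 80 ppm, where 4 of 9 tested markers fell. That of 5 red blood cell markers went from 33.9 to 172 CPM to 13.7 to 52.1 CPM, and 4 of 4 tested fell, where 8.89% of all genes did. Against lower PT doses none of these 4 passed. Their median log2 fold change against control was -0.58 at PT 20 ppm and -0.99 at PT 40 ppm, also with none past the threshold, and -1.31 at PT 80 ppm. Spp1, the 1 tested of 6 cholangiocyte markers, fell, and their sums were 56.2 to 128 CPM and 11.4 to 59.9 CPM.

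Of the 3 tested lymphocyte markers 1 fell, and neither of the 2 tested neutrophil markers passed. None of 8 sinusoidal endothelial markers passed (310 to 370 CPM and 294 to 396 CPM), and of 7 tested stellate cell and fibroblast markers 1 rose and 1 fell. Summed hepatocyte markers were 20445 to 41773 CPM and 24214 to 39837 CPM, with 4 of 9 higher. At a median of 0 in both groups were Cd8a, Mpo, Elane, Epcam and Cftr, and in addition Timd4 and Slc4a1 at PT 80 ppm and Acta2 in control mice. The part of these cell types in the values of the members was not tested.

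Acute phase genes differed widely among the control mice themselves. Saa1, a serum amyloid gene of the acute phase response, ran from 304 to 28865 CPM in control mice and from 7.93 to 600 CPM at PT 80 ppm, and 12 of 20 acute phase genes fell there while 0 rose. A lower level than in control was not particular to PT 80 ppm. The summed level of the 20 genes had a median of 89057 CPM in control mice, the highest of all groups. The dosed groups had medians from 34416 CPM at PT 80 ppm to 71697 CPM at PT 20 ppm, with 37590 CPM at PT 40 ppm and 41120 CPM at FT 10 ppm. The range of every dosed group overlapped with control. The relation of each member to the mean log2 level of the 20 genes was then measured over all 84 mice, with group, block and isolator subtracted, after these values had been seen. All 9 correlations were negative. The same relation was not measured for all genes, so it is not known whether this is particular to the members. For Cyp2d10 Pearson's r was -0.57 and Spearman's rho -0.62, for Cyp2d22 -0.56 and -0.58, for Cyp2d9 -0.53 and -0.59, and for Cyp2a5 -0.51 and -0.55.

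In 2-sided permutation tests with 100000 resamples these 4 members had adjusted p-values of at most 4.5e-05 for r and 2.25e-05 for rho over the 9 relations, with raw p-values down to 1e-05, the smallest that the resamples can give. Without the 2 mice farthest from the median, r was -0.52, -0.55, -0.49 and -0.49 in the same order. It was between -0.33 and -0.76 for these 4 within blocks 1, 3 and 4 (24, 36 and 24 mice). Cyp2f2 had an r of -0.24 (adjusted permutation p = 0.0477) and a rho of -0.23 (adjusted permutation p = 0.0598), and within block 1 its r was 0.08. Cyp2e1 (r = -0.09, rho = -0.08), Cyp2d26 (r = -0.05, rho = -0.16), Cyp2a12 (r = -0.15, rho = -0.20) and Cyp1a2 (r = -0.16, rho = -0.19) did not pass, with adjusted permutation p-values for r of 0.446, 0.659, 0.241 and 0.232. The part of the acute phase level in the differences of Cyp2a5 and Cyp2d22 at PT 80 ppm was not tested.

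Across the 84 mice, with block and isolator subtracted but the diet groups kept, the members did not move as 1 set. Of the 36 pairs, Pearson's r was highest for Cyp2d22 with Cyp2e1 (0.57) and lowest for Cyp2e1 with Cyp2f2 (-0.38). Within groups these were 0.28 and 0.01, and the highest was that of Cyp1a2 with Cyp2f2 (0.65). The genes most like each member over the same mice are a description only, since all points share their libraries. For Cyp2e1 these were Cyb5a (r = 0.78), Abcc2 (0.77) and Nr1i3 (0.76). For Cyp2a5 they were Cyp2a4 (0.93), Maob (0.75) and Gm6652 (0.72), and for Cyp2d22 Gpt (0.80) and Hpd (0.78).

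Cyp2f2 was most like C8g (0.83), Slc22a30 (0.81) and Hsd3b5 (0.79), and Cyp1a2 most like Gpx1 (0.72), Msrb1 (0.68) and Stk11 (0.65). For Cyp2a12 the genes were Ndufaf1 (0.83), Gm9790 (0.78) and Dhrs1 (0.78), and for Cyp2d10 Ces1c (0.82), Acaa2 (0.80) and Uqcrc2 (0.78). For Cyp2d9 they were Nipsnap1 (0.72), Pnpla7 (0.71) and Tecr (0.70), and for Cyp2d26 Slc25a13 (0.77), Lypla1 (0.74) and Ube2g1 (0.73). No gene was named for more than 1 member.

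The 250 bases before the start of each member's canonical transcript were searched on GRCm39, and matches on both strands are given for 4 of the short motifs searched: GCGTG (the core bound by the aryl hydrocarbon receptor), TTCNNNGAA (bound by STAT factors), AGGTCA (a nuclear receptor half-site) and TATAAA (the TATA box). Over the promoters of 10408 tested genes they were found in 39.3%, 6.46%, 11.8% and 8.51%. No member's window held GCGTG or TTCNNNGAA. AGGTCA was found in Cyp2e1 and Cyp2f2, and TATAAA in Cyp2a12 and Cyp2d10. The windows of Cyp2e1 and Cyp2f2 are shown, 5′ to 3′ on the strand of the gene, since these members moved in opposite directions at PT 80 ppm and hold the same half-site. Capitals mark the motif, whose letters stand on the other strand in Cyp2e1.
Cyp2e1: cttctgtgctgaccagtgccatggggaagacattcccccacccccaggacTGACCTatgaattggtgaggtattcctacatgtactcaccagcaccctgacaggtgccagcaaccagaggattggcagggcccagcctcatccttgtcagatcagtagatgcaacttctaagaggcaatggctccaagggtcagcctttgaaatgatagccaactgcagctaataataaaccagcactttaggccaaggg
Cyp2f2: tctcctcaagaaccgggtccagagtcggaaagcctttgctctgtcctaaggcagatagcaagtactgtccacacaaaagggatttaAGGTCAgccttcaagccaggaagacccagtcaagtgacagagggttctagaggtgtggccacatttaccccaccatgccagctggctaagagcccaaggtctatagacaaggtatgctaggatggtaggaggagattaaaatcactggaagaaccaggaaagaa
The windows are chr7:140343402-140343651 for Cyp2e1 and chr7:26819073-26819322 for Cyp2f2, both on the plus strand. Counted from the transcript start, the motif begins at -200 in Cyp2e1 and at -164 in Cyp2f2. A match is a run of letters, and binding was not measured.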

How the data were processed

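TempO-Seq counts of 84 mouse livers in 12 groups of 7 were analysed. Per the paper and the labels, the authors aligned reads with STAR to mm39 and deposited expected counts per gene estimated with Partek E/M, which were rounded here. The authors' other table, deposited as log2(CPM + 1) values with block and isolator effects removed by a linear model, is treated as a score and was used as an alternative only. Names and coordinates came from GENCODE M39 on GRCm39, the same assembly, for 17660 of 17695 identifiers.

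Genes with a median count above 8 (10415) were tested with edgeR 4.0.16 (TMM, quasi-likelihood, 1 model over all mice with group, block and isolator) and Benjamini-Hochberg adjustment over all genes. DESeq2 1.42.0, limma 3.58.1 on log2(CPM + 1) or log2(CPM + 0.1), other scalings, filters, covariates, subsets and summed paralogs were alternatives, in R 4.3.3, with Python 3.11.15 for the rest. Trends were linear in ppm. Intervals are at 95%.

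The members and gene lists were chosen with earlier results of these data known. Named were all 9 members, up to 4 list genes with the largest change among those past the threshold at PT 80 ppm, and the 3 most alike genes per member, and some genes these rules select, and 1 motif searched, are not reported here. List genes named beyond this were chosen after their values were seen.

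The scripts were tested on simulated data. At 6950381 to 15300589 counts per mouse, 3 counts correspond to 0.196 to 0.432 CPM, for counting error only. Per the study's methods mice shared cages and cages were assigned to diets. Which mice shared a cage was not used here, so p-values treat mice as independent.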

Additional observations from a re-analysis of the deposited data

Results flagged for a closer look

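The 108 sets of 7 mice, 1 for each member and group, were searched for a mouse apart from the rest. In 9 sets the gap from the highest or lowest mouse to the next was past the critical value of Dixon's test at the 95% level. For normal values chance gives about 1 in 20 such sets. The values were CPM with block not subtracted, and the share of such sets over all genes is not given, so 9 is not read as an excess. For Cyp2a5 these were the highest control mouse (337 CPM, the next at 175 CPM) and the highest PT 80 ppm mouse (861 CPM, the next at 389 CPM). Both belong to the groups that the largest fitted change compares. For Cyp1a2 it was the highest mouse at MT 25 ppm (102 CPM, the next at 70.8 CPM).

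In the Cyp2d family, 1 mouse at FT 2.5 ppm, replicate 7, had both the highest Cyp2d9 of its group (148 CPM, the next at 98.5 CPM) and the lowest Cyp2d10 (1252 CPM, the next at 1952 CPM). Cyp2d10 was also high in 1 mouse at FT 10 ppm (3038 CPM, the next at 2247 CPM). Cyp2d22 was high in 1 mouse at PT 20 ppm (59.5 CPM, the next at 42.5 CPM) and Cyp2d26 in 1 mouse at MT 10 ppm (557 CPM, the next at 422 CPM). Cyp2f2 was low in 1 mouse at FT 5 ppm (167 CPM, the next at 271 CPM).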

How the results depend on the processing

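The counts of members below are mostly given without the share of all genes that passed in the same alternative. A change in these counts therefore cannot be told from a general change in calls. Cyp2e1 at PT 80 ppm kept its direction and passed in every alternative run, against control and against lower PT doses. Without the block term, 3 members passed at PT 80 ppm against control, since Cyp2a5 was lost (1.05, adjusted p = 0.0708), and 4 against lower PT doses, where Cyp2a5 (0.83, adjusted p = 0.0651) and Cyp2a12 (-0.27, adjusted p = 0.0539) were lost. The block comes from the labels, while replicate numbers only name mice, so mice were not paired by them. With control and the same OPP alone, 2 members passed at PT 80 ppm and 1, Cyp2a12, at MT 100 ppm. At PT 80 ppm 2 members passed in block 1 alone and 1 in block 4 alone. With the deposited adjusted log2 values and limma, 3 members passed at FT 2.5 ppm, 3 at FT 5 ppm, 4 at FT 10 ppm, 1 at FT 20 ppm, 4 at MT 10 ppm, 2 each at MT 25, 50 and 100 ppm, 3 at PT 20 ppm and 4 at PT 40 ppm. In the F test 1 member passed without the PT 80 ppm group, an alternative chosen after seeing the data, as was leaving out each PT 80 ppm mouse.

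Signs turned at PT 80 ppm against control for Cyp1a2 (-0.52) and Cyp2d10 (-0.35) in block 1 alone, for Cyp2a12 (0.0187) and Cyp2d9 (0.16) in block 4 alone, and for Cyp2d26 with the adjusted values (-0.25). The summed paralogs, whose counts include the members that rose, gave 0.46 in place of Cyp2a12 and 0.13 in place of Cyp2d9, and 0.27 and 0.11 against lower PT doses. With 1 mouse left out at a time, 3 to 4 members passed at PT 80 ppm against control, 5 to 7 against lower PT doses and 0 in each other comparison of groups so treated. With limma and with library totals, 4 members passed at PT 80 ppm, with Cyp2d26 in place of Cyp2f2. DESeq2 found 4 and 6 members. The cause of these changes was not tested. With 7 mice a group and SEs of 0.11 to 0.28 for a member's change, a value that did not pass does not show that the groups were alike.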
